A study of Mus musculus with 2 samples.

Results

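The genes described here are 10 genes of muscle identity and of the contact between nerve and muscle: the myogenic factors Myod1, Myog and Myf6, the Mef2 factors Mef2a, Mef2c and Mef2d, the methyltransferase gene Smyd1, the acetylcholine receptor genes Chrna1 and Chrng, and the receptor kinase gene Musk. They were taken by name from the platform annotation, keeping every probe set whose only gene symbol was one of these. This gave 23 of the 20380 probe sets with 1 symbol, for 10 of the 12393 genes these stand for. A probe set is a group of short oligonucleotides read together as 1 value, the intensity, for a transcript. The samples were total RNA of mouse bone, with 1 array for an allograft (tissue moved between animals of one species) and 1 for an autograft (tissue moved within one animal). Both are labelled as femur of strain c57Bl/6, and the labels do not say whether that strain gave or received the allograft. The sources used here do not give the time after grafting, the age of the animals or how many animals stand behind each array.

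With 1 array per graft type no difference has a replicate check, no test was possible, and precision is limited by the number of arrays. The floor is an intensity of 175.2, the median over both arrays with control probe sets left out, and values from there up are called above it. Lower values were set to the floor before log2 was taken, and every log2 ratio is allograft minus autograft. A ratio with only 1 array above the floor is a bound, and where both arrays were below the floor no ratio is given. Since the RNA comes from whole tissue, fewer muscle cells and less RNA per muscle cell cannot be told apart.

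The myogenic factors are basic helix-loop-helix proteins that commit precursor cells to skeletal muscle and switch on muscle genes by binding the E-box, a short DNA motif, together with E proteins. The Mef2 proteins bind A/T-rich sites beside E-boxes and cooperate with them, but they also act outside skeletal muscle, Mef2c in cartilage, vessels, B cells and osteocytes among others. At the neuromuscular junction the nerve releases acetylcholine onto receptors in the muscle membrane. Chrna1 encodes the alpha subunit of that receptor and Chrng the gamma subunit, which is typical of fetal and denervated muscle. Musk encodes the kinase that gathers the receptors under the nerve ending.

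Promoter sequences were listed in the RefSeq table (build GRCm38.p6) for 8 of the 10 genes, 10 promoters in all. The 250 bases before the start site are shown for 4 of these genes: Myog and Chrna1, which lay lower in the allograft sample, Chrng, the receptor gene below the floor, and Smyd1, which had the lowest ratio. Capitals mark the E-box (CANNTG) and a loose form of the Mef2 site (CTANNNNTA), searched on both strands. The sequences lie at chr1:134289754-134290003 (plus strand), chr2:73580339-73580588 (minus strand), chr1:87205561-87205810 (plus strand) and chr6:71262282-71262531 (minus strand), each given 5′ to 3′ along its gene.
Myog: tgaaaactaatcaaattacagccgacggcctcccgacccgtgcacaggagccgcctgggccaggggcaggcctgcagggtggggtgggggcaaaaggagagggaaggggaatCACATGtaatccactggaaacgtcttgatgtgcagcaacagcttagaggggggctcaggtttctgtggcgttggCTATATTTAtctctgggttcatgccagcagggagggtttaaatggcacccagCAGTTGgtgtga
Chrna1: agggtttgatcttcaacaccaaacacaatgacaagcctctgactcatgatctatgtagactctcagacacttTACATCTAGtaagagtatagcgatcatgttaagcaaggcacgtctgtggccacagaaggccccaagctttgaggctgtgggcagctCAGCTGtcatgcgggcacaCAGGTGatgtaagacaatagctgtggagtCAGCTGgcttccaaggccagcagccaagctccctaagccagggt
Chrng: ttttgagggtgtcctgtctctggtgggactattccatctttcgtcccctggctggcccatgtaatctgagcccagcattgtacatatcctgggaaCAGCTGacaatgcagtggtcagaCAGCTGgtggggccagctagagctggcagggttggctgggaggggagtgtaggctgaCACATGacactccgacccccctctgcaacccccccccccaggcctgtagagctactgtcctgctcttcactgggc
Smyd1: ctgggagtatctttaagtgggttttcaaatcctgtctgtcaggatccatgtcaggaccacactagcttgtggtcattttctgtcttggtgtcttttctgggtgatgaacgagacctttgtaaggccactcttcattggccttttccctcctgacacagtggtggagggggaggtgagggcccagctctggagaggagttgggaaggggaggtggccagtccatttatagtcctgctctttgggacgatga

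In this window Myog had 2 E-boxes, beginning 138 and 12 bases before the start site, and 1 loose Mef2 match (CTATATTTA) beginning at 64 bases. Chrna1 had 3 E-boxes, at 92, 73 and 44 bases, with CAGCTG at the first and last of these, and 1 loose Mef2 match at 178 bases. Chrng had 3 E-boxes, at 155, 132 and 75 bases, and Musk 3, at 177, 100 and 68 bases. The windows of Smyd1, Mef2d and Mef2a held no E-box, and of the 3 listed for Mef2c one held 2, another held 1 and the last held 0. The E-box is a common motif: 66.2% of all 32851 promoters of the same length held at least 1, and 12.2% held 3 or more. The loose Mef2 form occurred in 19.0% of them and the stricter Mef2 consensus in 2.92%, and none of the 10 promoters held the latter. The loose form was added after the stricter search had found none, and besides Myog and Chrna1 it matched 1 of the Mef2c promoters. The N-box (CCGGAA), a motif known from genes read at the junction, was found in the Mef2a promoter alone of the 10 and in 12.0% of all promoters. No 2 marked motifs overlap. A match describes the letters of this window and no more.

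Of the 23 probe sets, 12 were above the floor on both arrays, 1 on the allograft array alone and 3 on the autograft array alone, while 7 were below it on both. The 16 with a ratio covered 8 genes. Over all 20380 probe sets with 1 symbol, 11010 had a ratio, and 9774 of these were above the floor on both arrays. With controls left out, the median intensity was 166.8 for the allograft and 184.2 for the autograft. The common floor of 175.2 lies between these medians, so more probe sets passed it for the autograft. The members' split of 3 against 1 is therefore not read as a difference between the grafts. At 2-fold, 0 of the 16 were higher and 2 were lower in the allograft sample, one of Smyd1 and one of Mef2d, and both are bounds. Across all 11010 probe sets with a ratio, 0.99% were 2-fold higher (109) and 0.727% were 2-fold lower (80). Quantile normalization changed these counts to 121 and 52, and the split also shifted with the other scalings. The members' median log2 ratio was -0.19, with 10 below and 6 above 0, against a median of -0.07 and 58.3% below 0 over all probe sets with a ratio. For the 12 with both arrays above the floor, ratios ran from -0.63 to 0.20, with a median of -0.10.

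**Figure D1:**
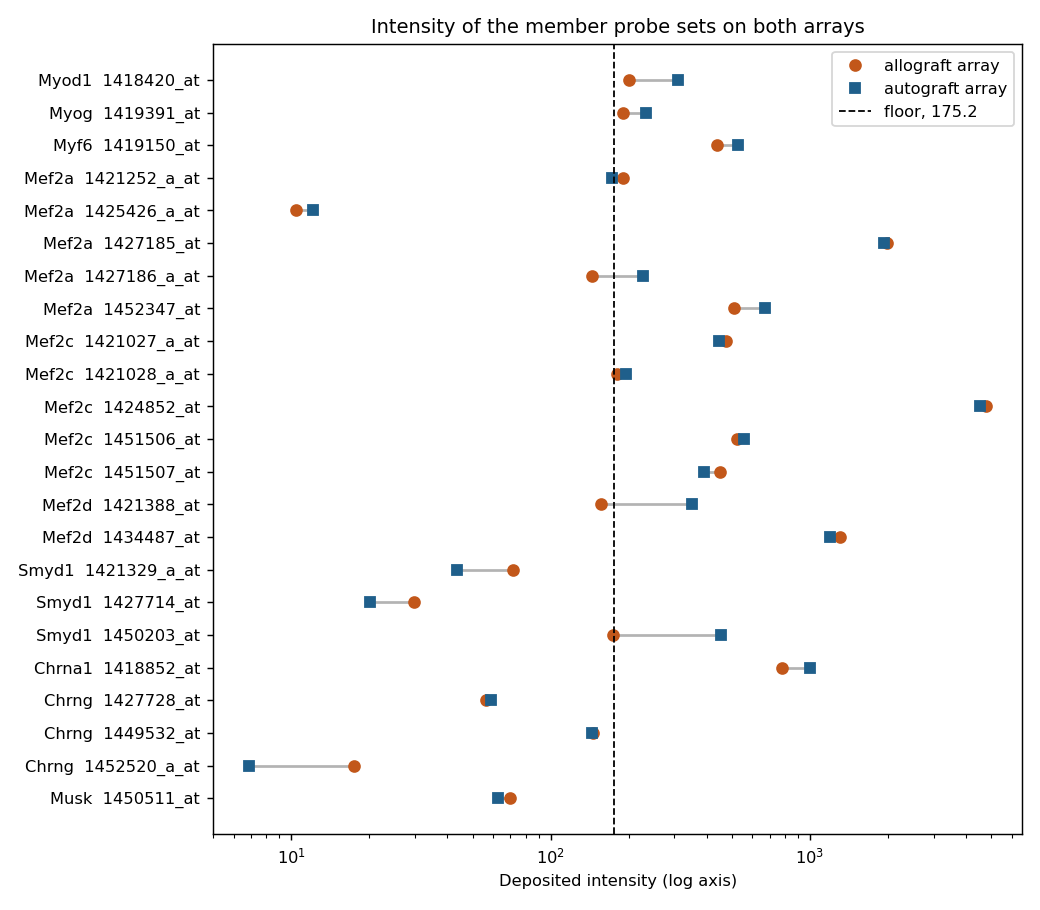
Deposited intensity (log axis) of each of the 23 member probe sets for the allograft (circles) and the autograft (squares), 1 array each, with the floor of 175.2 as a dashed line. The 3 probe sets of Chrng and that of Musk lie below the floor on both arrays, and the wide gaps above or across the floor are those of Smyd1 1450203_at and Mef2d 1421388_at.

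Myod1, the factor that commits cells to the muscle lineage, read 199.8 for the allograft and 309.0 for the autograft (probe set 1418420_at). Its log2 ratio of -0.63, 1.55-fold lower in the allograft sample, was the lowest among members with both arrays above the floor and stood at percentile 5.17 of all probe sets with a ratio. Myog, myogenin, which drives the differentiation of committed cells, read 190.9 against 233.6 (1419391_at, log2 ratio -0.29). Myf6, the factor of mature fibres also called MRF4, read 439.7 against 527.5 (1419150_at, -0.26). All of these were lower on the allograft array, and none reached 2-fold.

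The precision of these readings is low, since Myod1 stood at 114% of the floor in the allograft sample and Myog at 109%. Both arrays were also compared with probe sets of like intensity, by dividing all those above the floor on both arrays into 20 bins of mean log2 intensity. In its bin the central 95% of ratios ran from -0.83 to 0.62 for Myod1, from -0.46 to 0.34 for Myog and from -0.82 to 0.67 for Myf6. Each of the 12 member ratios with both arrays above the floor lay inside its own range. Close to the floor, however, the need for both arrays to be above it limits the ratio. At its mean intensity Mef2c 1421028_a_at (179.8 against 194.6) could not leave its range of -0.46 to 0.34, so its place inside is no result. The range of Myog comes from the same bin and is narrowed by the same filter. Relative to the median of its bin, the ratio was -0.48 for Myod1, -0.23 for Myog and -0.16 for Myf6.

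**Figure D2:**
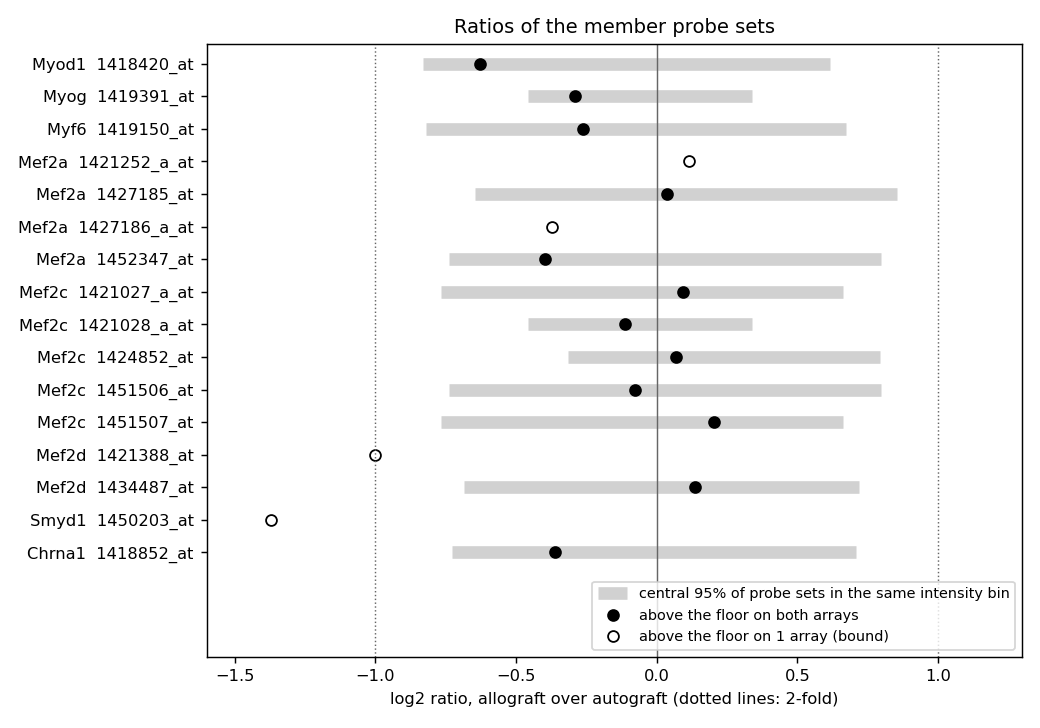
Log2 ratio of allograft over autograft for the 16 member probe sets with a ratio (x axis, dotted lines at 2-fold). Filled points were above the floor on both arrays, open points are bounds, and grey bars give the central 95% of probe sets in the same intensity bin; every filled point lies inside its bar.

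Mef2c had 5 probe sets, all above the floor on both arrays, and all close to 0. The probe set 1424852_at read 4755 in the allograft sample and 4531 in the autograft sample (log2 ratio 0.07). The others read 474.4 against 444.4 (1421027_a_at, 0.09), 179.8 against 194.6 (1421028_a_at, -0.11), 525.3 against 554.4 (1451506_at, -0.08) and 450.3 against 391 (1451507_at, 0.20). The annotation lists one source sequence for 3 of them, 1424852_at, 1451506_at and 1451507_at, so they are not independent readings of the transcript. From lowest to highest the 5 ratios spanned 0.32 on the log2 scale. Of the 38 genes with 5 such probe sets, 33 spanned more, and the median span was 0.71. Signs among these probe sets were mixed, and for 3 of the 5 the sign also changed with the scaling or the correction for intensity.

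Mef2a, a factor found in many tissues, also had 5 probe sets, and these were less alike. The probe set 1427185_at read 1979 against 1927 (log2 ratio 0.04), and 1452347_at, listed with the same source sequence, read 508.9 against 669.3 (-0.40). These 2 ratios differed by 0.43, a wider gap than in most of the 1405 genes with 2 such probe sets, whose median was 0.28; it was wider still in 415 of them. Another with that source sequence, 1427186_a_at, was above the floor in the autograft sample alone, at 144.9 against 226.7, which bounds the log2 ratio at -0.37. The probe set 1421252_a_at lay across the floor the other way, at 189.8 against 172.2 (a bound of 0.12). The last, 1425426_a_at, was below the floor on both arrays at 10.4 and 12.1.

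Mef2d, the remaining factor of the family, gave readings that opposed each other. The probe set 1421388_at read 156.5 in the allograft and 350.4 in the autograft sample, which against the floor gives an allograft level at least 2-fold lower and lies exactly at the threshold. The probe set 1434487_at, above the floor on both arrays, read 1306 against 1190, a log2 ratio of 0.13. Since the lower value is a bound, the ratios were at least 1.13 apart on the log2 scale (1421388_at minus 1434487_at, -1.13 at most). With the floor 10% higher, an alternative added once the values were known, or after any of the other scalings or the correction for intensity, 1421388_at was no longer 2-fold apart.

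Smyd1 encodes a histone methyltransferase of heart and skeletal muscle that is needed for the assembly of myofibrils. The probe set 1450203_at read 174.5 against 453.1, so that the allograft level was at least 2.59-fold lower. The log2 bound of -1.37 stood at percentile 0.127 of all probe sets with a ratio. That rank is over probe sets of every intensity, and as a bound it has no range of like intensity beside it. The rank also depends on the floor: 2.60% of all probe sets were 2-fold lower with a 25th-percentile floor, against 0.727% with the floor used. The allograft reading was 99.6% of the floor, so the ratio of the intensities as deposited is nearly the same, at -1.38. The other probe sets were below the floor on both arrays, with 71.5 against 43.6 for 1421329_a_at and 29.6 against 20.1 for 1427714_at. Their deposited values lay higher in the allograft sample, against the direction of 1450203_at. One of them, 1421329_a_at, is listed with the same source sequence as 1450203_at.

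The receptor genes differed in whether they could be read. Chrna1 read 778.2 in the allograft and 998.5 in the autograft sample (1418852_at), a log2 ratio of -0.36 at percentile 18.7, lower in the allograft sample by 1.28-fold. The 3 probe sets of Chrng were below the floor on both arrays, at 146 and 144.8 (1449532_at), 56.2 and 58.7 (1427728_at), and 17.5 and 6.9 (1452520_a_at). Musk was below the floor as well, at 69.5 and 62.5 (1450511_at). For Chrng and Musk no difference between the graft types was detectable at these intensities.

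**Figure D3:**
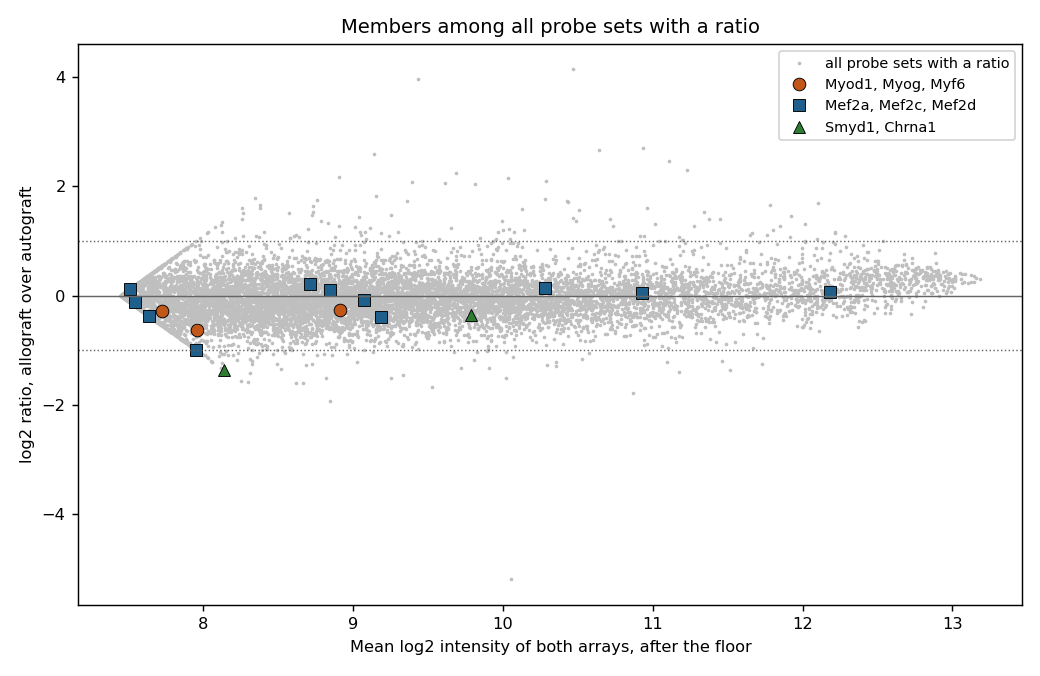
Log2 ratio of allograft over autograft (y axis) against the mean log2 intensity of both arrays after the floor (x axis) for all 11010 probe sets with a ratio (grey) and the 16 of the members (coloured). The straight edges at the left come from setting values to the floor; the bounds of Smyd1 at -1.37 and Mef2d at the 2-fold line lie near that edge, and the other members lie inside the 2-fold lines.

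The partners of the members were described by 14 lists of companion genes, with 1 value per gene from its brightest probe set. Of all 7833 genes with a ratio, 0.868% were 2-fold higher and 0.753% 2-fold lower in the allograft sample, 59.5% were below 0, and the median was -0.08. The neuromuscular junction list held 31 genes on the array, of which 18 had a ratio: 8 above 0, 10 below 0 and 0 at 2-fold, with a median of -0.06. Chrnb1, the beta subunit of the receptor, read 690.3 against 689.3 (log2 ratio 0.00), whereas Chrna1 lay at -0.36. Rapsn, which anchors the receptor, was above the floor in the autograft sample alone (157.3 against 224.8, a bound of -0.36). Agrn, whose protein acts through Lrp4 and Musk, read 410.6 against 573.1 (-0.48), and the cells that carried this transcript are not known from the data. Its receptor Lrp4 was below the floor (146.1 and 168.4), as were the receptor subunits Chrnd (11.5 and 11) and Chrne (51.5 and 167.2), the enzyme gene Ache (160.7 and 171.8) and its anchor Colq (70.2 and 96.3). The list's lowest gene was Col13a1, a membrane collagen of the junction (-0.68), and its highest were the basement membrane gene Nid1 (0.44) and Dvl1 (0.21).

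The partners and inhibitors of the myogenic factors lay on both sides of 0, with 5 above and 8 below among 13 with a ratio, 0 at 2-fold and a median of -0.10. The E proteins, which pair with Myod1 and Myog, were close to 0: Tcf3 at -0.10, Tcf4 at 0.10 (its other probe sets between -0.37 and 0.05) and Tcf12 at -0.04. Of the Id proteins, which keep E proteins from pairing, Id1 stood at -0.35, Id3 at -0.35 and Id2 at 0.28, and Id4 was above the floor for the allograft only (189.7 against 87.4, a bound of 0.11). The extremes were Bhlhe40 (-0.60) and Twist1 (0.45). Regulators and partners of the Mef2 factors had a median of 0.03 over 19 genes, 10 above and 9 below 0 and 0 at 2-fold. The deacetylases that hold Mef2 proteins inactive stood at -0.44 for Hdac5 and -0.62 for Hdac7, with Hdac9 below the floor (9.8 and 9.4). Mrtfa was lowest (-0.70), and the calcineurin subunit genes Ppp3r1 (0.44) and Ppp3ca (0.42), with Naca (0.43), were highest.

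Of 20 satellite cell and early regulator genes on the array, 9 were below the floor on both arrays. Among them were Pax7 (65.3 and 37.7), the marker of muscle stem cells, and Myf5 (28.6 and 17.9), the remaining myogenic factor. Pax3, Six4, Eya1, Eya2 and Msc were below it too. Over all 12393 genes, 7833 had a ratio. The 11 listed genes with a ratio had a median of -0.19, 2 above, 8 below and 1 at 0, none at 2-fold, from Heyl (-0.60) to Vcam1 (0.72). That median does not cover the regulators below the floor. Genes of myoblast differentiation and fusion had a median of -0.08 over 21 genes, 8 above and 13 below 0, and 0 at 2-fold. Cdh15, the cadherin of myoblasts, read 242.6 against 337.1 (-0.47), Mymk, the fusion protein myomaker, 338.3 against 265.1 (0.35), and Myh3, the embryonic myosin heavy chain, 1061 against 846.8 (0.32). The lowest were Ankrd2 (-0.79) and Neo1 (-0.55). Genes known to rise when muscle loses its nerve had a median of 0.06 over 12 genes, 6 above and 6 below 0, none at 2-fold, between Nes (-0.47, with another probe set at -0.997) and Ampd3 (0.69). With the 11 above the floor on both arrays alone that median was -0.05, and the list shares genes with those of fusion and of the junction. No member was placed in a companion list, so neither median counts Chrng or Musk, both below the floor. Myod1 (-0.63), Chrna1 (-0.36) and Myog (-0.29) are not counted either, while 6 of the 16 member ratios were above 0.

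By their median, muscle fibre genes stood on the other side of 0 from the myogenic factors. Of 42 on the array 41 were above the floor on both arrays, with a median intensity of 5386 in the allograft and 4502 in the autograft sample, so transcripts of skeletal muscle fibres were read in both bone samples. Their median log2 ratio was 0.21, with 24 above and 17 below 0, 2 genes 2-fold higher and 0 lower. Atp2a1, the calcium pump of fast fibres, had a ratio of 1.71, Acta1, skeletal actin, 1.08 and Ckm, muscle creatine kinase, 0.82. The lowest were Actn2 (-0.55) and Ckmt2 (-0.46). None of the 41 genes of this list was lower than Myod1, 3 were lower than Chrna1, 5 were lower than Myog and 5 were lower than Myf6. Other members lay in the middle of the list, with 20 of the 41 lower than Mef2d 1434487_at and 20 lower than Mef2c 1451507_at. These counts depend on how the lists were split, since Ankrd2 (-0.79), placed in the list of differentiation and fusion, was lower than Myod1. Fibre genes are bright, and over all probe sets the bin median was -0.15 at the intensity of Myod1 and 0.27 at that of Mef2c 1424852_at. In the latter bin the central 95% of ratios ran from -0.31 to 0.80. Few probe sets that bright were therefore as low as Chrna1 or Myod1, whichever gene they read. After quantile normalization the fibre median was 0.03, whereas Myod1, Myog, Myf6 and Chrna1 stayed below 0 in every setting in which they had a ratio. The part of intensity in the gap between fibre genes and myogenic factors was not tested further.

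**Figure D4:**
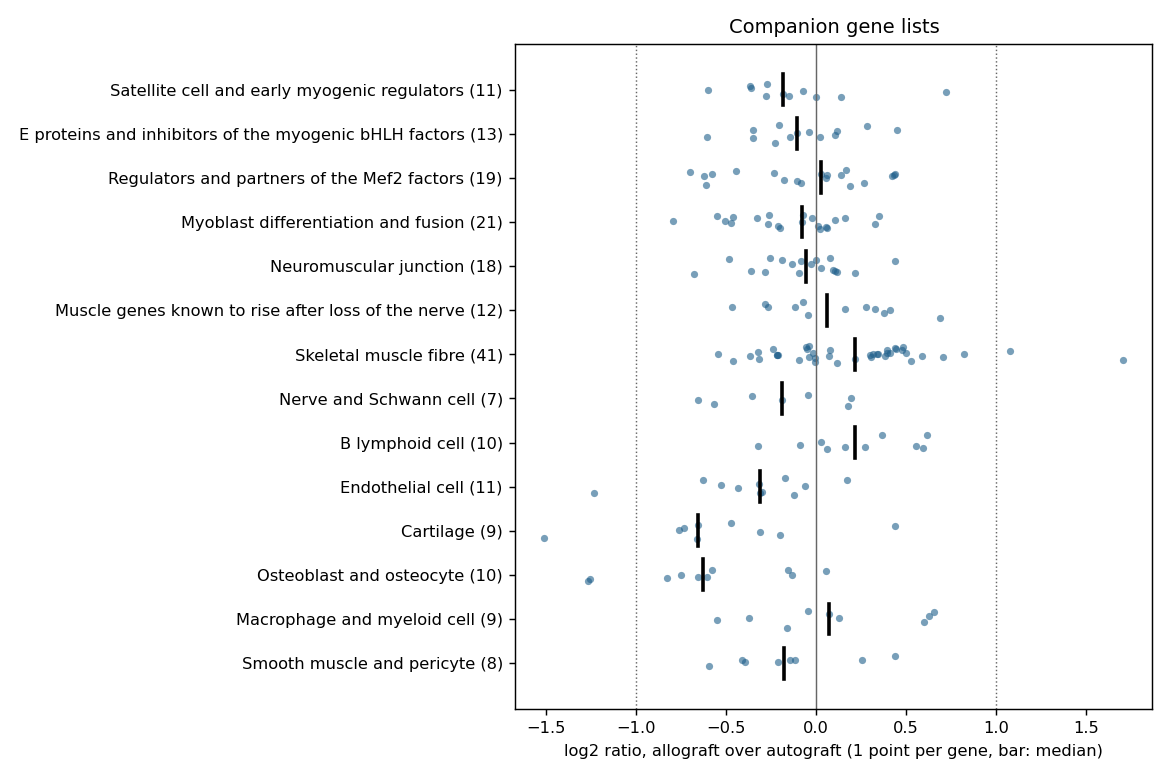
Log2 ratio of allograft over autograft (x axis) for the genes of the 14 companion lists, 1 point per gene with its ratio from the brightest probe set, the number of genes in parentheses and the median as a bar. The fibre list reaches 1.71 at its upper end with its median at 0.21, and the lists of junction, fusion and Mef2 regulators centre near 0.

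Other cells of the graft can carry Mef2 transcripts, and their marker lists stood on both sides of 0 beside Mef2c ratios near 0. The B lymphoid list had a median of 0.22 (10 genes, 8 above 0, 0 at 2-fold), from Cd79a (-0.32) to Cd72 (0.62). The macrophage and myeloid list stood at 0.07 (9 genes, 5 above 0, 0 at 2-fold), from Cd68 (-0.55) to Csf1r (0.65), although 2 other probe sets of Csf1r lay at -0.59 and -0.03. The endothelial list had a median of -0.31 (11 genes, 10 below 0), where Robo4 (-1.23) was 2-fold lower, and the smooth muscle and pericyte list -0.18 (8 genes, 6 below 0, 0 at 2-fold), from Cspg4 (-0.59) to Tagln (0.44). The cartilage list had a median of -0.65 (9 genes, 8 below 0), with Col10a1 2-fold lower (-1.51) and Col2a1 at 0.44 the only gene above 0. The osteoblast and osteocyte list, which marks the labelled tissue, had 10 of 12 genes above the floor, with Sost and Fgf23 below it, and a median of -0.63 (9 below 0), with Omd (-1.27) and Alpl (-1.25) 2-fold lower. Nerve and Schwann cell genes stood at -0.19 (7 of 17 with a ratio, 5 below 0, 0 at 2-fold), from S100b (-0.57, with another probe set at 0.11) to Cnp (0.19) among those above the floor on both arrays, and Mag and Nefl were below the floor. Mbp stood at -0.19 by its brightest probe set, and its others with a ratio lay between -0.90 and -0.72. Summed over the B lymphoid list the intensity came to 4692 for the allograft and 4012 for the autograft, that of the endothelial list 4769 and 5762, and that of the cartilage list 18401 and 22090. The cartilage sum includes Col2a1 (6121 against 4511), which went the other way. In the same order the sums were 16440 and 22472 for the osteoblast and osteocyte list and 26983 and 23543 for the macrophage and myeloid list. They were 20048 and 21130 for smooth muscle and pericytes, and 5787 and 5923 for nerve and Schwann cells. The part of these cells in the members' values was not tested. The beta-actin controls, whose 3' to 5' ratio goes up as RNA degrades, gave 1.77 for the allograft and 1.19 for the autograft. The Gapdh controls gave 0.194 and 0.0349, with the 3' signal far below the 5' signal on both arrays, so they are not read as a measure of RNA quality. The part of RNA quality was not tested either.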

How the data were processed

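Total RNA of 1 allograft and 1 autograft sample was measured on 1 oligonucleotide array each, and the arrays were grouped by their titles. The deposited file gives 1 linear intensity per probe set and array. The authors' software and background correction are not stated in the sources used here. The 2% trimmed means of the deposited intensities, 500.2 and 500.1, showed a common scaling, so the values were used as they were. The array held 22690 probe sets, 64 of them controls; 20380 had 1 gene symbol, 691 had several (none naming a member) and 1555 were unlisted. The Entrez identifiers of 20351 matched the RefSeq table of GRCm38.p6, and 0 symbols changed.

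Values under the floor (175.2, the 50th percentile) were set to it, and a log2 ratio was computed from the deposited intensities. A gene's value in the 14 lists (289 entries, 261 on the array) comes from the probe set with the highest mean intensity. The members and lists were chosen with earlier results of these data known. Named were all member probe sets, some fixed partners, and a selection of the 2 highest and 2 lowest genes of each list above the floor on both arrays. The counting step was tested on simulated data. Alternatives were other scalings, floors, thresholds, a pseudocount of 16, a lowess correction (span 0.4) and other probe set rules. The work was done in Python 3.11.15 with pandas 2.3.3, statsmodels 0.14.6 for lowess, scipy 1.17.1, numpy 2.4.6, and matplotlib 3.10.9 for figures.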

Additional observations from a re-analysis of the deposited data

How the results depend on the processing

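No paired analysis was possible because each graft type has 1 array and the comparison comes from no test. The 101 alternative log2 ratios of the member probe sets all lay within 1.5-fold of the reported value. That margin is wide and says little for most members, since only 3 of the 16 reported ratios reached 1.5-fold themselves. Within it, Mef2a 1427186_a_at ran from -0.65 to -0.30. The sign stayed the same for 13 of the 16 probe sets. The exceptions were Mef2c 1421028_a_at (-0.11 to 0.02), 1424852_at (-0.11 to 0.13) and 1451506_at (-0.08 to 0.01). The ratio of Smyd1 1450203_at ran from -1.38 to -1.26 and that of Mef2d 1421388_at from -1.16 to -0.90. The count of members 2-fold lower was 1 instead of 2 after quantile normalization, after centring on the median or on the 75th percentile, after the lowess correction and with the floor 10% higher (chosen after the data were seen), because Mef2d 1421388_at lay at the threshold. The count was 0 for a 75th-percentile floor, where 5 members had a ratio, and 0 at a 4-fold threshold. No member was 2-fold higher in any setting run.

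Over all named probe sets, the percentage higher and lower was 1.22 and 0.583 after median centring, 1.25 and 0.546 after centring on the 75th percentile, and 1.21 and 0.427 after the lowess correction. It was 1.62 and 2.60 for a 25th-percentile floor, 2.33 and 4.09 with no floor and a pseudocount of 16, 4.28 and 6.49 at 1.5-fold, and 0.127 and 0.00908 at 4-fold. The percentage lower was 0.474 after quantile normalization and 0.399 for a 75th-percentile floor. By gene, Mef2d stood at 0.13 by its brightest and at the 2-fold bound by its dimmest probe set. List medians moved by less than 1.5-fold in every alternative run for them, though the sign turned for the partners of the myogenic factors (0.01 after quantile normalization), the genes of denervation (-0.01 after it) and the macrophage list (-0.03 over all probe sets). Readings near the floor limit Myod1, Myog, Smyd1 and the lower Mef2d probe set.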
